A study of Mus musculus with 18 samples.

Results

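Macrophages without Wbp7 (Wbp7-/-, KO) were compared with macrophages heterozygous for its loss (Wbp7+/-, HET) after 4 h of lipopolysaccharide (LPS). Members were chosen by the labels: the 3 KO and the 3 HET arrays labelled with 4 h of LPS, 6 of the 18 arrays of the study, and all 21137 probe sets that the platform annotation gives to exactly 1 gene. The cells were bone marrow-derived macrophages from mice of 94% C57BL/6 and 6% 129/Ola background, grown with L929-conditioned medium and used on day 7 of differentiation. LPS was given at 10 ug/ml. The other 4 groups, also of 3 arrays each, were untreated KO and HET cells and KO and HET cells after 2 h of the same LPS dose, and they are used here to follow the 4 h differences back in time. The controls of every group had themselves lost 1 Wbp7 allele, and no wild type group was analysed here. How the allele was deleted, and whether the 3 arrays of a group came from separate mice, the labels do not say, so p-values measure only the spread between these arrays, which may be technical.

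Wbp7, also named Kmt2b, encodes an enzyme that methylates lysine 4 of histone H3, a mark found at promoters of expressed genes, and its protein carries a domain that binds unmethylated CG dinucleotides. Macrophages sense LPS, a component of the outer membrane of gram-negative bacteria, through Tlr4 together with Cd14. Immediate genes are transcribed within the first hour, and later genes depend in part on newly made factors and on secreted type I interferon, so that different genes are at their peak at different times after LPS.

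Values are log2 signal, and a difference is KO minus HET on the log2 scale, on which 1 is a 2-fold difference. It is given with the standard error (SE) of a limma fit over all 18 arrays and with n = 3 arrays per group. A probe set is called, or said to have risen or fallen in KO, at an adjusted p under 0.05 (Benjamini-Hochberg, over all 21137 probe sets). In a bulk sample, fewer cells of a type and less RNA per cell cannot be told apart.

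HET replicate 1 stood apart from the other HET arrays at 4 h. The SD of its difference from HET replicates 2 and 3 over all probe sets was 0.472 and 0.509, against 0.261 between those 2 and 0.208 to 0.259 between KO arrays. It was over 1 log2 unit lower than their mean at 674 probe sets and over 1 log2 unit higher at 256. HET replicate 1 stood apart at the other times too, with an SD of 0.432 and 0.475 untreated and 0.506 and 0.526 at 2 h. Between HET replicates 2 and 3 the SD was 0.262 untreated and 0.278 at 2 h. Calls that ended and values that moved by over 1.5 times without HET replicate 1 are given with the results below. Array medians lay between 8.05 and 8.13 over the 18 arrays. The macrophage identity list averaged 12.23 to 12.53 on each 4 h array, with 0 of its 29 measured genes called, beside 2.46% of all genes.

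The probe set of Wbp7 itself read 10.32, 10.05 and 10.14 in HET and 9.94, 10.21 and 10.09 in KO at 4 h. The groups overlapped, and the difference of −0.09 (SE 0.156, adjusted p = 0.717; −0.02 without HET replicate 1) was not called. In the other groups it read 10.49 to 10.97 (HET) and 10.35 to 10.47 (KO) untreated, and 10.33 to 10.96 (HET) and 10.42 to 10.73 (KO) at 2 h. The labels do not say which part of the transcript it covers, so it checks the genotype labels in neither direction. Of the 20 measured genes nearest to Wbp7, 10 on each side, 0 were called, with differences between −0.59 and 0.42. Over all genes 2.46% were called, so 0 of 20 does not set this neighbourhood apart.

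After 4 h of LPS, 530 of the 21137 probe sets were called (2.51%), 286 higher in KO (1.35%) and 244 lower (1.15%). They belong to 500 genes, 276 higher and 224 lower. The larger differences were mostly losses: 96 called probe sets were at least 2-fold lower and 39 at least 2-fold higher, and 15 were at least 4-fold lower against 2 at least 4-fold higher. The median difference was −0.85 over the called lower and 0.62 over the called higher probe sets, beside −0.05 over all. Over all probe sets 361 (1.71%) differed by 2-fold or more in either direction. The 3 KO and 3 HET arrays did not overlap at 529 of the 530 called probe sets, and at 5792 of all 21137 (27.4%). In the same limma fit 4292 probe sets had an unadjusted p under 0.05.

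**Figure D1:**
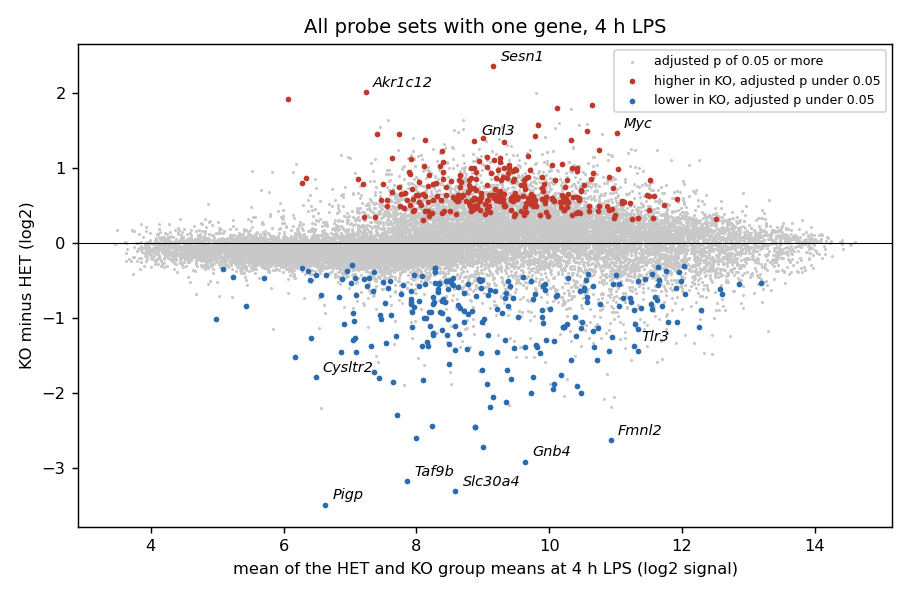
KO minus HET difference at 4 h of LPS (log2, vertical axis) against the mean of both group means (log2 signal, horizontal axis) for the 21137 probe sets with 1 gene. The 244 called lower probe sets reach −3.49 (Pigp) and −3.31 (Slc30a4), while the 286 called higher ones reach 2.36 (Sesn1).

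How many probe sets were called depended on single arrays. Without HET replicate 1 at 4 h, 200 were called (0.946%), 77 higher (0.364%) and 123 lower (0.582%), of which 186 were among the 530. Without HET replicate 1 at all 3 times, 951 were called (4.5%), 610 higher (2.89%) and 341 lower (1.61%), with 461 shared. The number was 114 without KO replicate 2, 112 of them shared, and 201 without KO replicate 3, 190 of them shared. Whichever of the 6 arrays was left out, 104 probe sets kept the call, 78 lower and 26 higher. Leaving out HET replicate 1 at 2 h, which changes only the estimate of the spread, gave 1173.

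Among the called lower probe sets, 160 of 244 had HET replicate 1 as the highest HET array, and among the called higher ones 212 of 286 had it as the lowest. Genes below that kept the call without each array in turn also kept it without HET replicate 1. Some others kept it without HET replicate 1 and lost it only without another array, as given with each gene.

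Several of the strongest losses were present before LPS. Taf9b, a relative of the general transcription factor subunit Taf9, read 8.76, 9.65 and 9.92 in HET and 6.26, 6.52 and 6.03 in KO. Every KO array lay over 2 log2 units below the lowest HET array, and all 3 were dim, under 6.706, the smallest lower quartile of any array, so the size of the difference, −3.17 (SE 0.257, adjusted p = 9.49e-06), is uncertain. It was −4.06 untreated and −3.64 at 2 h, called both times. Stau2, a double-stranded RNA-binding protein of mRNA transport, read 8.90, 9.79 and 9.66 in HET and 7.11, 6.95 and 6.99 in KO. Its KO arrays lay close together and well below all HET arrays, with a difference of −2.44 (SE 0.258, adjusted p = 0.000128), beside −2.70 untreated and −2.39 at 2 h. Maged1, an adaptor of the MAGE family, read 9.81, 10.41 and 10.10 in HET and 7.81, 7.50 and 7.65 in KO. The difference of −2.45 (SE 0.24, adjusted p = 7.91e-05) again had counterparts of like size, −2.63 untreated and −2.58 at 2 h.

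Fmnl2, a formin that extends actin filaments, was lower in KO by −2.62 (SE 0.419, adjusted p = 0.00446), reading 12.70, 12.06 and 11.95 in HET and 9.76, 9.54 and 9.53 in KO. The HET arrays were all above 11 and the KO arrays all below 10. Ube2e2, a ubiquitin-conjugating enzyme, differed by −2.05 (SE 0.259, adjusted p = 0.00071) and the palmitoyltransferase Zdhhc2 by −2.29 (SE 0.282, adjusted p = 0.000563). All 3 were also called untreated (−2.34, −1.54 and −1.39) and at 2 h (−2.70, −1.94 and −2.27). Taf9b, Stau2, Maged1, Fmnl2, Ube2e2 and Zdhhc2 kept the 4 h call whichever of its 6 arrays was left out. Those fits still took part of their spread from the other times. With only the 6 arrays fitted, Ube2e2 was not called (adjusted p = 0.0693) and the others were.

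A probe set assigned to Pigp (10545528 on the platform), which belongs to the transferase complex for the earliest step of glycosylphosphatidylinositol (GPI) anchor synthesis, had the lowest difference of all called probe sets. It read 8.26, 8.48 and 8.36 in HET and 4.68, 5.65 and 4.32 in KO. The KO arrays lay in the dim range below 6.706, so the size of −3.49 (SE 0.359, adjusted p = 0.000119) is uncertain. This loss was present before LPS. The difference was −4.16 in untreated cells and −4.04 after 2 h, both called, with KO arrays that were dim there too. The other Pigp probe set (10441055), the brighter one, read 9.35, 9.18 and 9.10 in HET and 8.77, 8.61 and 8.75 in KO, a difference of −0.50 (SE 0.0944, adjusted p = 0.0116). That call ended without HET replicate 1 (adjusted p = 0.0578) or KO replicate 2 (adjusted p = 0.0795). The brighter probe set was likewise called lower before LPS, by −0.56, and after 2 h, by −0.38. The 2 probe sets therefore gave the same direction and very different sizes.

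**Figure D2:**
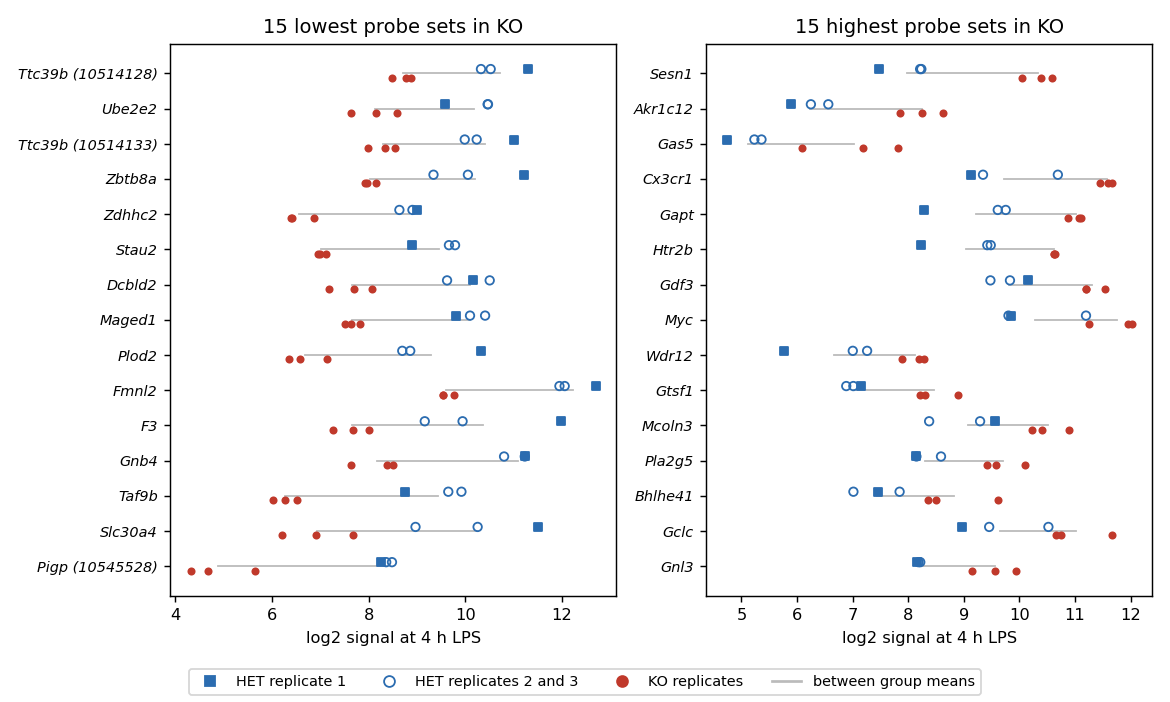
Log2 signal on each 4 h array for the 15 lowest (left) and the 15 highest (right) called probe sets in KO. HET replicate 1 is a filled square, HET replicates 2 and 3 are open circles, KO arrays are filled circles, and the grey line joins the group means; in F3, Slc30a4 and Zbtb8a the square lies far to the right of the open circles.

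Other losses had larger values at 4 h than in untreated cells. Of these 4 genes the change itself was called for Gnb4 alone in the limma fit without a block, as given below. With the numbered cultures of each genotype as a random or fixed block, it was called for Dcbld2 too (adjusted p = 0.0489 and 0.0328). Gnb4, a beta subunit of heterotrimeric G proteins, read 11.24, 11.23 and 10.80 in HET and 8.50, 7.64 and 8.39 in KO at 4 h. No KO array came within 2 log2 units of a HET array, and the difference was −2.91 (SE 0.217, adjusted p = 6e-06), against −1.59 at 2 h and −0.83 untreated, which was not called (adjusted p = 0.191). Dcbld2, a transmembrane receptor-like protein, read 10.16, 10.51 and 9.62 in HET and 8.07, 7.18 and 7.70 in KO, a difference of −2.45 (SE 0.315, adjusted p = 0.000776). It was −2.24 at 2 h and −0.86 untreated (adjusted p = 0.691). Plod2, a lysyl hydroxylase that modifies collagen, read 10.32, 8.70 and 8.86 in HET and 7.15, 6.35 and 6.58 in KO. HET replicate 1 was the highest of its group; the difference of −2.60 (SE 0.378, adjusted p = 0.00249) was −2.09 without it and was called there too (adjusted p = 0.00491). Both probe sets of Ttc39b, a tetratricopeptide repeat protein, fell. The lower, at −2.12 (SE 0.327, adjusted p = 0.00354), read 11.02, 10.24 and 9.99 in HET and at most 8.55 in KO, and the other was called at an adjusted p of 0.00532. These 5 probe sets kept their calls without each of the 6 arrays. With only the 6 arrays fitted, Plod2 was not called (adjusted p = 0.0827) and the others were.

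Slc30a4, which exports zinc from the cytosol, F3, the tissue factor that starts coagulation, and Zbtb8a, a zinc finger protein, were less certain because their HET arrays were far apart. Slc30a4 read 11.50, 10.26 and 8.97 in HET and 6.92, 6.20 and 7.68 in KO. The groups did not overlap, and the difference of −3.31 (SE 0.591, adjusted p = 0.00892) was not called without KO replicate 2 (adjusted p = 0.0638). F3 read 11.98, 9.94 and 9.16 in HET and 7.67, 7.26 and 8.01 in KO. Its difference of −2.72 (SE 0.64, adjusted p = 0.0369) was −1.91 without HET replicate 1 and not called (adjusted p = 0.165), nor was it called without KO replicate 1 (0.0759), 2 (0.174) or 3 (0.0879). With HET replicate 1 left out at all 3 times it was called (adjusted p = 0.000577). Zbtb8a differed by −2.18 (SE 0.397, adjusted p = 0.01) and was not called without KO replicate 2 (adjusted p = 0.0554).

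Several receptors and ligands were among the losses. Lpar1, a lysophosphatidic acid receptor, read 11.08, 11.06 and 10.89 in HET and 9.16, 9.03 and 9.22 in KO. Within each group the arrays were within 0.2 log2 units of each other, and the difference was −1.87 (SE 0.213, adjusted p = 0.000273). It was −1.83 at 2 h and −0.26 untreated. Its change from untreated to 4 h, −1.61, was not called in the limma fit without a block (adjusted p = 0.118). That change was called with the cultures as a random or fixed block (adjusted p = 0.00476 and 0.00892). Cysltr2, a cysteinyl leukotriene receptor, read 7.51, 7.19 and 7.41 in HET and 5.69, 5.28 and 5.79 in KO, a difference of −1.79 (SE 0.145, adjusted p = 9.49e-06) whose size is uncertain because the KO arrays were dim. Tlr3, the receptor for double-stranded RNA, read between 11.92 and 12 in HET and 10.97, 10.31 and 10.49 in KO, lower by −1.38 (SE 0.206, adjusted p = 0.00298). Its difference was already called untreated (−1.41, adjusted p = 0.00395) and was larger at 2 h (−2.37, adjusted p = 2.98e-05). Il23r, a subunit of the interleukin 23 receptor, differed by −1.34 (SE 0.166, adjusted p = 0.000563), and Dll1, a Notch ligand, by −1.41 (SE 0.148, adjusted p = 0.000128). Angpt1, the ligand of the receptor Tie2, differed by −1.52 (SE 0.131, adjusted p = 1.77e-05) with dim KO arrays. These 6 genes kept the call without each array in turn. P2ry14, a receptor for UDP-sugars, differed by −1.39 (SE 0.299, adjusted p = 0.0244) but not without HET replicate 1 (adjusted p = 0.125), KO replicate 1 (0.068) or KO replicate 2 (0.15).

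Over the list of macrophage chemotactic and lipid receptors, 2 of 30 measured genes fell (Lpar1 and P2ry14), 1 rose (Cx3cr1), and the median difference was −0.04 (0.03 without HET replicate 1 and 0.02 after quantile normalization), beside −0.06 over all genes. The background for such counts, taken over the brightest probe set of each of 19475 genes, was 480 genes called (2.46%), 262 higher (1.35%) and 218 lower (1.12%). Uncalled members included P2ry13 at −1.03 (adjusted p = 0.193) and Ccr3 at −0.98 (adjusted p = 0.192), or −0.52 (0.715) without HET replicate 1.

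Promoter sequence was set beside these calls because the enzyme's protein binds CG dinucleotides. In the 300 bases from 250 before to 50 after the start of RefSeq transcripts (GRCm38.p6), the motif searched was CG, which reads the same on both strands. It occurred at least once in 96.1% of the 15456 genes with a promoter entry, with a median of 15 copies. The median was 21 for 181 called lower genes and 23 for 209 called higher genes. Among genes above the median of mean signal the medians were closer, 21 over all 7728, 24 for the 112 lower and 24.25 for the 192 higher. The difference between called genes and all genes was thus smaller among brighter genes, and no test was made.

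The 150 bases before the start of 5 genes are printed to show the range among genes whose calls held in 5 or 6 of the 6 fits with an array left out, with CG in capitals. Fmnl2 (chr2:52857718-52857867, plus strand) and Slc30a4 (chr2:122702664-122702813, minus strand) fell in KO, with 49 and 46 CG in their 300 bases. Cysltr2 (chr14:73049115-73049264, minus strand) and Il23r (chr6:67491856-67492005, minus strand) also fell, with 3 and 2. Gnl3 (chr14:31019132-31019281, minus strand) rose, with 44. In windows of these 150 bases 90.9% of 18996 promoters held the motif, and 18.9% held at most 1 copy.
Fmnl2: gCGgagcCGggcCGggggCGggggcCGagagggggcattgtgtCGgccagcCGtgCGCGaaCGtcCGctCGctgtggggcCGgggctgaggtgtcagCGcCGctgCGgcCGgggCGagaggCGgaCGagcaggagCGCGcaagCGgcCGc
Slc30a4: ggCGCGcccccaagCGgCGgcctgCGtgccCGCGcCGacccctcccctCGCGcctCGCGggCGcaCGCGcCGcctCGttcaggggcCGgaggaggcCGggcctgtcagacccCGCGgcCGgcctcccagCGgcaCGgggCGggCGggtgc
Cysltr2: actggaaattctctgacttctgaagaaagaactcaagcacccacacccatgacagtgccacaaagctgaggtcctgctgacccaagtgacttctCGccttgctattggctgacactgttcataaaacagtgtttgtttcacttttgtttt
Il23r: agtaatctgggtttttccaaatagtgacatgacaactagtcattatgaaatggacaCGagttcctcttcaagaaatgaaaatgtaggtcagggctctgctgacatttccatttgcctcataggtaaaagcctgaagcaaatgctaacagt
Gnl3: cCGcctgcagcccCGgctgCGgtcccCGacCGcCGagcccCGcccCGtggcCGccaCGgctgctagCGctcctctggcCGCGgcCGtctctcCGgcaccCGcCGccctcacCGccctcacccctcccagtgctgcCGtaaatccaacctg
The sequences of Fmnl2, Slc30a4 and Gnl3 hold 24, 26 and 19 copies, and those of Cysltr2 and Il23r hold 1 each, so that genes that fell in KO included promoters at either end of the range.

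Among the genes that rose in KO, Sesn1, a stress-induced inhibitor of mTORC1 signalling, had the largest difference. It read 7.48, 8.21 and 8.24 in HET and 10.05, 10.39 and 10.58 in KO, higher by 2.36 (SE 0.47, adjusted p = 0.0155). Every KO array was over 1.5 log2 units above every HET array, yet the call ended without HET replicate 1 (adjusted p = 0.0827) and without KO replicate 2 (0.0778) or 3 (0.0724). Akr1c12, an aldo-keto reductase, read 5.89, 6.56 and 6.25 in HET and 7.86, 8.25 and 8.63 in KO, a difference of 2.01 (SE 0.275, adjusted p = 0.00145) that was 1.90 untreated and 1.74 at 2 h. Its family has near-identical members, so signal from another Akr1c gene cannot be told apart. Gtsf1, known as a factor of the germline piRNA pathway, rose by 1.45 (SE 0.17, adjusted p = 0.000362) and Pla2g5, a secreted phospholipase A2, by 1.40 (SE 0.241, adjusted p = 0.00717). Akr1c12, Gtsf1 and Pla2g5 were also called at both earlier times and kept the 4 h call without each array.

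Gnl3, the nucleolar protein nucleostemin, was higher in KO than in HET at 4 h and was called neither untreated nor at 2 h. It read 8.17, 8.19 and 8.22 in HET and 9.15, 9.95 and 9.56 in KO. The HET arrays agreed within 0.1 log2 units, all KO arrays were higher, and the difference was 1.36 (SE 0.177, adjusted p = 0.000804), kept without each array in turn, beside 0.13 at 2 h and −0.20 untreated. Htr2b, a serotonin receptor, read 8.22, 9.42 and 9.48 in HET and 10.63, 10.63 and 10.61 in KO, a difference of 1.58 (SE 0.293, adjusted p = 0.0105) that was 1.17 without HET replicate 1 and called there (0.0317), but not without KO replicate 2 (0.0559). Gdf3, a ligand of the TGF-beta family, rose by 1.49 (SE 0.308, adjusted p = 0.0189) and was not called without KO replicate 2 (0.0745) or 3 (0.0879). Mcoln3, an endolysosomal cation channel, rose by 1.43 (SE 0.305, adjusted p = 0.0231) and was not called without HET replicate 2 (0.0542), KO replicate 2 (0.0841) or 3 (0.108). Bhlhe41, a transcriptional repressor of the clock, rose by 1.38 (SE 0.28, adjusted p = 0.0177) and was not called without HET replicate 1 (0.0607) or KO replicate 2 (0.0707).

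The remaining leading gains lost the call without several arrays. Cx3cr1, the fractalkine receptor, read 9.14, 10.69 and 9.35 in HET and 11.66, 11.46 and 11.60 in KO. The difference was 1.85 (SE 0.413, adjusted p = 0.03), and it was called in 1 of the 6 fits with an array left out, with adjusted p between 0.0633 and 0.149 in the others. Myc, the growth-promoting transcription factor, read 9.85, 9.80 and 11.20 in HET and 11.26, 12.03 and 11.96 in KO. HET replicate 3 lay just below the lowest KO array; the difference was 1.47 (SE 0.321, adjusted p = 0.0269), and the call ended without HET replicate 1 (0.137), HET replicate 2 (0.0652), KO replicate 2 (0.15) or 3 (0.108). Gclc, which catalyses the rate-limiting step of glutathione synthesis, rose by 1.37 (SE 0.321, adjusted p = 0.0354) and was not called without the same 4 arrays (0.176, 0.0708, 0.192 and 0.0724).

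Gas5, a noncoding RNA that hosts small nucleolar RNAs, rose by 1.92 on 1 probe set (SE 0.399, adjusted p = 0.0199) and was not called without HET replicate 1 (0.1), KO replicate 2 (0.126) or 3 (0.0855). Gapt, a transmembrane adaptor of haematopoietic cells, rose by 1.80 (SE 0.377, adjusted p = 0.0208) and was not called without HET replicate 1 (0.0885), KO replicate 2 (0.0987) or 3 (0.0825). Wdr12, a factor of large ribosomal subunit assembly, rose by 1.45 on its dimmer probe set (SE 0.34, adjusted p = 0.0354), not called without HET replicate 1 (0.147) or KO replicate 1 (0.056), 2 (0.169) or 3 (0.118); its brighter one stood at 1.07 (adjusted p = 0.0636), or 0.67 (0.268) without HET replicate 1. Of the 30 leading probe sets in both directions, 16 kept the call without each array.

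Genes of ribosome biogenesis rose in part. Of 34 measured genes 6 rose and 0 fell, beside 1.35% and 1.12% of all genes. Above 0 lay 32, and the median was 0.43, beside −0.06 over all genes. The 6 were Gnl3 and Myc, given above, Wdr75 at 0.88 (adjusted p = 0.0427), the nucleolar protein Nop56 at 0.63 (adjusted p = 0.0154), the rRNA methyltransferase Nop2 at 0.55 (adjusted p = 0.0395) and Nip7 at 0.49 (adjusted p = 0.0468). Polr1b, a subunit of RNA polymerase I, stood at 0.90 (adjusted p = 0.0665), or 0.54 (0.262) without HET replicate 1. The list averaged 9.48 on HET replicate 1, 10.02 and 9.97 on HET replicates 2 and 3, and 10.21 to 10.43 on the KO arrays, so that every KO array was above every HET array and HET replicate 1 was lowest. Without that array the median was 0.26, with 1 gene called when only the 4 h array was dropped and 9 when it was dropped at all 3 times; the part of that array in the result was not tested. The list's median was −0.11 untreated and 0.03 at 2 h.

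Nop56 was not called without HET replicate 1 (0.0814), KO replicate 2 (0.103) or 3 (0.0516), nor Wdr75 without HET replicate 1 (0.116) or KO replicate 1 (0.0609), 2 (0.191) or 3 (0.137). Wdr75 stood at 0.54 without HET replicate 1. Nop2 and Nip7 kept the call in 1 of the 6 fits with an array left out, with adjusted p up to 0.199 and 0.227, and neither was called with culture (genotype and number) as a random block (0.0539 and 0.0582).

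Cholesterol synthesis and uptake genes lay higher throughout. All 19 measured genes had a difference above 0, and 4 rose and 0 fell, beside 1.35% and 1.12% of all genes. The median was 0.35 (0.39 without HET replicate 1 and 0.25 after quantile normalization), beside −0.06 over all genes. Fdft1, the squalene synthase, read 9.83, 10.45 and 10.31 in HET and 11.01, 11.46 and 10.91 in KO. Its KO arrays all lay above its HET arrays by at least 0.4 log2 units, with a difference of 0.93 (SE 0.171, adjusted p = 0.0101) that was not called without KO replicate 2 (0.0685). Msmo1, a sterol demethylating oxidase, rose by 1.01 (adjusted p = 0.0342), Mvd, mevalonate diphosphate decarboxylase, by 0.59 (adjusted p = 0.023) and the sterol carrier Stard4 by 0.80 (adjusted p = 0.0434). Msmo1 and Mvd kept the call in 1 of the 6 fits with an array left out and Stard4 in 2, with adjusted p up to 0.176, 0.112 and 0.222, and Stard4 was not called with culture as a random block (0.0536). Squalene epoxidase Sqle at 0.74 (adjusted p = 0.0823) and Hmgcs1 at 0.75 (adjusted p = 0.107) were not called. With HET replicate 1 left out, 1 gene was called (4 h array only) or 5 (all 3 times). The list's median was 0.00 untreated and 0.26 at 2 h.

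**Figure D3:**
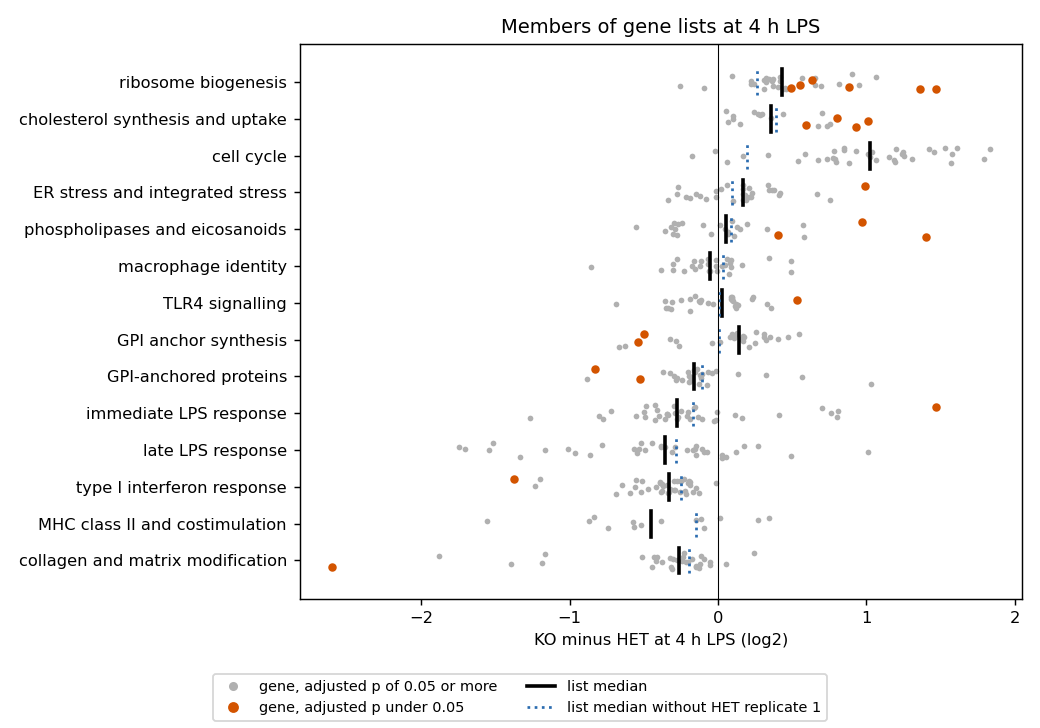
KO minus HET difference at 4 h (log2) of the measured genes of 14 lists, with called genes in orange, list medians as black bars and medians without HET replicate 1 as dotted bars. The cell cycle median moves from 1.03 to 0.20 without that array, while the cholesterol median stays near 0.35.

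Called LPS response genes are read against the background of 2.46% of all genes. Of 37 late LPS response genes 0 were called, 29 lay below 0, and the median was −0.36, or −0.28 without HET replicate 1, against −0.75 at 2 h. When HET replicate 1 was left out at all 3 times 2 were called lower, and 0 when only its 4 h array was left out. Il6, a late cytokine, read 13.42, 13.34 and 13.28 in HET and 12.89, 12.02 and 12.55 in KO. All KO arrays were below all HET arrays, but the difference of −0.86 was not called (SE 0.269, adjusted p = 0.0998). Members further from 0, Il10 at −1.74 (adjusted p = 0.203), Serpinb2 at −1.70 (adjusted p = 0.197) and endothelin Edn1 at −1.55 (adjusted p = 0.0609), were not called either. Serpinb2 stood at −1.14 without HET replicate 1, and Edn1 was called without that replicate at all 3 times (adjusted p = 0.0193). Of 40 immediate LPS response genes 1 rose (Myc) and 0 fell, with a median of −0.27, or −0.17 without HET replicate 1.

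All 40 measured type I interferon response genes lay below 0 at 4 h, with 1 called, Tlr3, and a median of −0.33, beside −0.06 over all genes. The median was −0.79 untreated and −1.13 at 2 h, and −0.25 at 4 h without HET replicate 1. The list averaged 13.30, 13.06 and 12.98 on the HET arrays and 12.80, 12.53 and 12.80 on the KO arrays, so each KO array was lower than each HET array, and HET replicate 1 was the highest. Cxcl9 at −1.24 (adjusted p = 0.251) and the GTPase Iigp1 at −1.20 (adjusted p = 0.22) were the uncalled members furthest from 0. Cd14, which is GPI-anchored and passes LPS to Tlr4, read 13.62, 13.41 and 13.21 in HET and 13.39, 13.35 and 13.29 in KO, a difference of −0.07 (adjusted p = 0.799), or 0.03 without HET replicate 1. Of 30 measured TLR4 signalling genes, the kinase gene Mapk8 rose by 0.53 (adjusted p = 0.0341) and 0 fell; Mapk8 was not called without HET replicate 1 (0.156) or KO replicate 1 (0.0517), 2 (0.175) or 3 (0.0974).

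Cell cycle genes were low on HET replicate 1. Of 37 measured genes 0 were called, 35 lay above 0, and the median was 1.03. The list averaged 8.22 on HET replicate 1, 10.52 and 10.55 on the other HET arrays and 10.68 to 10.77 on the KO arrays. HET replicate 1 was over 1 log2 unit below the other HET arrays at 32 of the 37 genes, with a median of −2.45. Without it the list's median was 0.20, with 0 called when only the 4 h array was dropped and 7 called higher when it was dropped at all 3 times. With all arrays the list's median was 0.85 untreated and 1.01 at 2 h. The arrays of HET replicate 1 at those times entered the spread behind the calls. The cyclin Ccna2, for example, read 7.43, 11.76 and 11.82 in HET and 12.07, 12.20 and 12.23 in KO, at 1.83 with all arrays, 0.38 without the 4 h array of HET replicate 1 (adjusted p = 0.955) and 0.38 (adjusted p = 0.011) without HET replicate 1 at all 3 times. MHC class II and costimulation genes lay the other way, with 0 of 14 called and a median of −0.45, or −0.15 without that array, on which the list averaged 11.03 against 10.59 and 10.10 on the other HET arrays. Dropping HET replicate 1 at all 3 times gave 1 called lower, Cd86 (adjusted p = 0.0132).

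**Figure D4:**
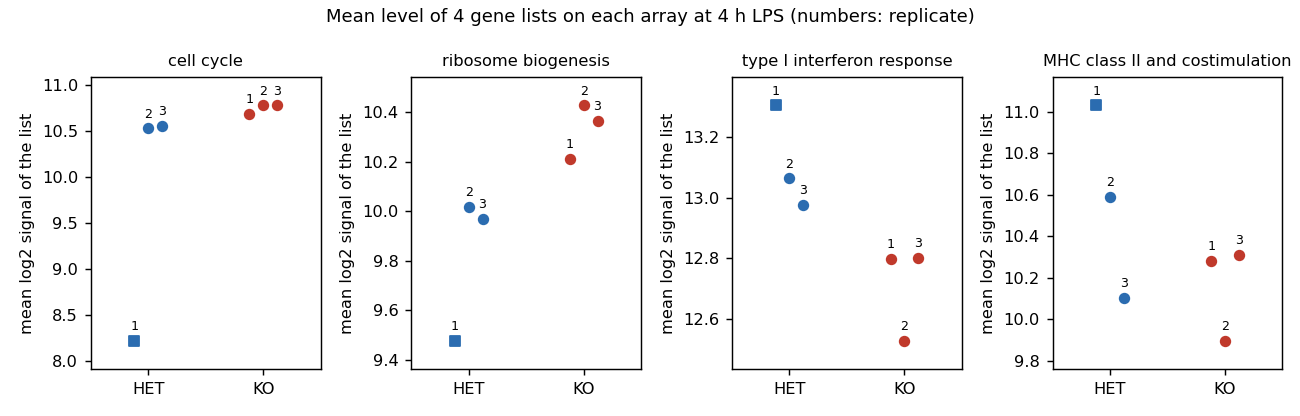
Mean log2 signal of 4 gene lists on each 4 h array, with the replicate number above each point and HET replicate 1 as a square. On HET replicate 1 the cell cycle list averages 8.22 and the ribosome biogenesis list 9.48, below every other array, while the type I interferon list is highest there at 13.30.

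GPI anchor synthesis had 2 of 28 measured genes lower, Pigp and the mannosyltransferase Pigz, and 0 higher, with a median of 0.14 (0.01 without HET replicate 1). Pigz read 8.73, 8.49 and 8.59 in HET and 8.18, 8.06 and 7.96 in KO. Its difference of −0.54 (SE 0.0976, adjusted p = 0.00985) was −0.74 untreated and −0.49 at 2 h, called each time, and at 4 h it was not called without KO replicate 2 (0.0548) or 3 (0.0535). Pigv at −0.67 (adjusted p = 0.105) and Pgap1 at −0.63 (adjusted p = 0.101) were not called. Pgap1 was called when HET replicate 1 was left out at all 3 times (adjusted p = 0.0472). Of 29 GPI-anchored proteins, Prnp, the prion protein, fell by 0.83 on the log2 scale (adjusted p = 0.039) and Reck, an inhibitor of matrix metalloproteinases, by 0.53 (adjusted p = 0.032), with 0 higher and a median of −0.16. Prnp kept the call in 1 of the 6 fits with an array left out, with adjusted p up to 0.195, and Reck in 2, with adjusted p up to 0.169.

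In the other lists between 0 and 3 members were called, beside the background of 2.46% of all genes. Of 26 phospholipase and eicosanoid genes 3 rose and 0 fell: Pla2g5, Pla2g2e at 0.97 (SE 0.181, adjusted p = 0.0106) and Pla2g6 at 0.40 (adjusted p = 0.0401), with a list median of 0.05 (0.09 without HET replicate 1 and −0.02 after quantile normalization). Pla2g2e read 8.67, 8.97 and 9.38 in HET and 9.80, 10.13 and 10.01 in KO, was called untreated (0.94) and at 2 h (1.03), and lost its 4 h call when HET replicate 1 (0.0533) or KO replicate 2 (0.0727) was left out. Pla2g6 kept the call in 1 of the 6 fits, with adjusted p up to 0.195, and was not called with culture as a random block (0.0514). Of 27 metal ion transporters and metallothioneins Slc30a4 fell, and Slc30a5, another zinc transporter, rose by 0.70 (SE 0.144, adjusted p = 0.0194), though not without KO replicate 2 (0.11) or 3 (0.0825). Of 30 Nrf2 and glutathione genes Gclc rose and the glutathione transferase Gstm5 fell by 1.08 on the log2 scale (SE 0.168, adjusted p = 0.00368), kept without each array, with dim KO arrays.

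Among 32 endoplasmic reticulum stress genes Herpud1, of the degradation machinery of that compartment, rose by 0.99 (SE 0.202, adjusted p = 0.0176), though not without HET replicate 1 (0.0834) or KO replicate 2 (0.114), and 0 fell. The p53 target list had Sesn1 higher of 21 measured genes and 0 lower, the glycolysis and hypoxia list 1 higher (Pfkfb4 at 0.59, adjusted p = 0.0456) and 1 lower (Plod2) of 34. Pfkfb4 kept the call in 1 of the 6 fits, with adjusted p up to 0.223, and was not called with culture as a random block (0.0639). Plod2 was also the 1 called gene of 32 for collagen and matrix modification, of which 30 lay below 0, with a median of −0.26. F3 was the 1 called gene of 26 for coagulation and fibrinolysis, and Gnb4 the 1 of 34 for G proteins and their regulators. Taf9b was the 1 called gene of 20 for TFIID and its associated factors, while the other 19 lay above 0 without being called. The H3K4 methyltransferase complexes had 0 of 21 called and a median of 0.27, or 0.12 without HET replicate 1. Leaving that replicate out at all 3 times gave 1 called higher.

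Markers of other cells that bone marrow cultures can hold gave 0 calls: neutrophils (18 measured), lymphocytes (22), erythroid cells (7), stromal cells (19), mast cells and basophils (13) and dendritic cells (18). At the background of 2.46% of all genes called, lists of this size would hold few calls or none. Their medians lay between −0.22 (dendritic cells) and −0.06 (neutrophils), and without HET replicate 1 between −0.13 (stromal cells) and −0.03 (neutrophils and mast cells), with dendritic cells at −0.07. Leaving out HET replicate 1 at all 3 times gave 1 dendritic cell marker called lower. Stromal genes lay below 0 at 17 and above at 2, from −1.30 (Kdr, adjusted p = 0.0661) to 0.33. Dendritic cell genes lay below 0 at 15 and above at 3, from −1.38 (Kmo, adjusted p = 0.0615) to 1.03. Single markers varied widely within a group: stromal Sparc read 9.24, 10.58 and 7.86 in HET and 9.89, 7.56 and 8.69 in KO. The mean log2 level of a list on each array was 8.40 to 8.51 in HET and 8.35 to 8.62 in KO for neutrophils. It was 6.97 to 7.17 and 6.98 to 7.01 for lymphocytes, 7.34 to 7.52 and 7.36 to 7.51 for erythroid cells, and 6.62 to 6.79 and 6.5 to 6.60 for mast cells. For stromal cells it was 8.07 to 8.53 and 7.87 to 8.37, and for dendritic cells 8.50 to 9.10 and 8.33 to 8.79. The groups overlapped for each of these lists other than mast cells, and the part of other cells in the results was not tested.

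The untreated and 2 h arrays did not enter the 4 h differences, but they entered the estimate of the spread that decided the calls. Their values at the called probe sets, given here, are therefore not independent of the choice of those probe sets. Same-numbered arrays of 1 genotype deviated together across times (r across probe sets 0.321 to 0.794 in 18 pairs), so the times are not independent. Of the 244 lower at 4 h, 207 were below 0 untreated and 234 at 2 h. In untreated cells 85 probe sets were called lower (0.402%), 11 higher (0.052%) and 96 in all (0.454%). At 2 h 334 were called lower (1.58%), 251 higher (1.19%) and 585 in all (2.77%). Of the 4 h losses, 49 were also called lower untreated (20.1% of 244 and 57.6% of 85) and 104 at 2 h (42.6% of 244 and 31.1% of 334). At all 3 times 45 probe sets of 37 genes were called lower, and 136 were called lower at 4 h only.

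Fewer of the gains were called in untreated cells. Of the 286 higher at 4 h, 190 were above 0 untreated and 282 at 2 h. They included 9 of the 11 called higher untreated (3.15% of 286 and 81.8% of 11) and 66 of the 251 called at 2 h (23.1% of 286 and 26.3% of 251). At all 3 times 7 were called higher, and 218 at 4 h only. A call at 4 h only does not show that the difference changed with time, which the test of that change addresses below.

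The LPS course of these genes was read from the untreated and 2 h arrays, which entered the spread behind the calls but not the 4 h differences. In HET cells, 34 of the 244 lower probe sets (13.9%) had risen by 2-fold or more from untreated to 2 h, beside 2.63% of all, and 0 had fallen by as much. In KO cells 5 of the 244 (2.05%) had risen so, beside 1.40% of all. Of the 286 higher probe sets, 36 (12.6%) had fallen by 2-fold or more in HET by 2 h, beside 1.63% of all, and 8 (2.80%) in KO, beside 0.289% of all. Losses in KO thus held a larger share of genes induced early in HET, and gains a larger share of genes repressed early in HET, than all probe sets did; no test was made of this. Sesn1 and Myc are examples of gains whose HET signal was lower at 4 h than in untreated cells. Sesn1 read 11.61, 11.99 and 12.27 in untreated HET and 12.02, 12.34 and 12.36 in untreated KO, against 7.48 to 8.24 and 10.05 to 10.58 at 4 h. Myc read 12.59, 12.26 and 12.19 in untreated HET and 12.01, 11.97 and 12.08 in untreated KO, against 9.80 to 11.20 and 11.26 to 12.03 at 4 h.

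Whether the genotype difference at 4 h was unlike that in untreated cells was tested as a change of the difference. In the limma fit 8 probe sets were called (0.0378%), 1 upward (0.00473%) and 7 downward (0.0331%), and 1513 had an unadjusted p under 0.05. With the numbered cultures of each genotype as a random block 76 were called (0.36%), 67 of them also called at 4 h, and with them as a fixed block 91 (0.431%), 70 of them called at 4 h. All 8 were among both. The difference moved downward by −2.08 for Gnb4 (SE 0.307, adjusted p = 0.0326), −1.51 for Cysltr2 (SE 0.205, adjusted p = 0.0226) and −1.45 for Il23r (SE 0.235, adjusted p = 0.0465). It moved by −1.34 for Dll1 (SE 0.21, adjusted p = 0.0431), −1.31 for Angpt1 (SE 0.185, adjusted p = 0.0238) and −1.15 for Hap1 (SE 0.145, adjusted p = 0.0178), a huntingtin-associated protein. The upward change was that of Gnl3, 1.57 (SE 0.25, adjusted p = 0.0431). With an array left out, between 0 and 10 probe sets were called, with 0 if the untreated array left out was HET replicate 3 or KO replicate 1 or 2. The number was 1 or 2 without the other untreated arrays, and among 4 h arrays it was 4 without HET replicate 1 or 2, 3 without KO replicate 2 and 1 without KO replicate 3.

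These genes took different courses. Il23r read 6.28, 6.16 and 6.03 in untreated HET and 6.47, 6.11 and 6.22 in untreated KO, and at 4 h 9.44, 8.89 and 9.17 in HET and 7.61, 7.80 and 8.06 in KO. The untreated groups overlapped, but both were dim (under 6.706), so a difference there could have gone unseen. Il23r rose in both genotypes, to a lower level in KO. Untreated Cysltr2 and Angpt1 were likewise dim in both genotypes. Dll1 read 7.41 to 7.47 in untreated HET and 7.23 to 7.44 in untreated KO, and at 4 h 9.40, 9.69 and 9.32 in HET and 8.14, 7.85 and 8.18 in KO. Hap1 read 9.42, 9.27 and 9.21 in HET and 7.92, 7.88 and 7.82 in KO at 4 h, a difference of −1.43 (SE 0.102, adjusted p = 5.23e-06), after 7.61 to 7.96 and 7.41 to 7.59 untreated. Gnl3 went down with LPS in both genotypes, from 10.52 to 10.94 (HET) and 10.33 to 10.56 (KO) untreated to the 4 h levels given above, and less far in KO.

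**Figure D5:**
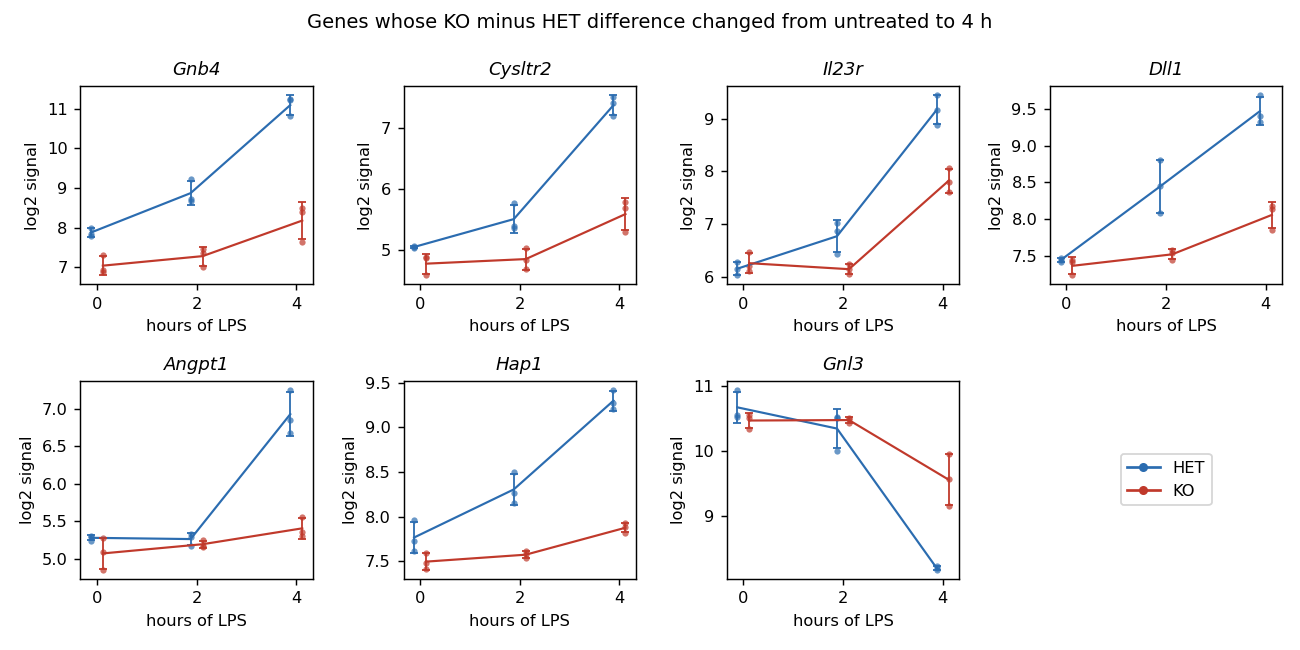
Log2 signal of the 7 named genes whose KO minus HET difference changed from untreated to 4 h, at 0, 2 and 4 h of LPS in HET and KO; points are arrays, lines join the means, and bars are ± 1 SD (n = 3). HET and KO lie together at 0 h for Il23r and Dll1 and apart at 4 h in all 7 panels, with Gnl3 the 1 gene higher in KO. At 0 h Il23r, Cysltr2 and Angpt1 are dim (under 6.706) in both genotypes.

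From 2 h to 4 h the difference changed at 1 probe set (0.00473%), downward (0.00473%), with 0 upward (0%) and 756 at an unadjusted p under 0.05 in the limma fit. It was Angpt1, which read 5.32, 5.17 and 5.30 in HET and 5.16, 5.25 and 5.17 in KO at 2 h, and 6.67, 6.86 and 7.25 in HET and 5.56, 5.30 and 5.35 in KO at 4 h. The groups overlapped at 2 h, where all arrays were dim (under 6.706), so a difference there could have gone unseen. They were over 1 log2 unit apart at 4 h, a change of −1.45 (SE 0.185, adjusted p = 0.0211, or 0.00217 and 0.0173 with the culture as a random or fixed block). The call ended when any 2 h array was left out, and likewise for HET replicate 2 and KO replicates 2 and 3 of the 4 h arrays. The 4 next smallest p belonged to Cysltr2 (−1.13, adjusted p = 0.34; 0.0135 and 0.0173 with the culture blocks), Mfsd9, a membrane transporter (−0.77, adjusted p = 0.34; 0.0413 and 0.125), Il6 (2.07, adjusted p = 0.34; 0.0694 and 0.143) and Sos1, an activator of Ras (−0.93, adjusted p = 0.525; 0.0941 and 0.174). Il6 had read 12.98, 11.59 and 12.74 in HET and 9.49, 9.46 and 9.56 in KO at 2 h, far apart, before the closer 4 h values above. At 4 h itself Mfsd9 stood at −1.01 (SE 0.0989, adjusted p = 7.91e-05) and Sos1 at −0.71 (SE 0.133, adjusted p = 0.0106), the latter not called without KO replicate 2 (0.0745).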

How the data were processed

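RNA of 18 samples, 3 in each of 6 groups of genotype and LPS time, had been measured on Affymetrix gene arrays. The deposited values, which the authors obtained by RMA in Partek 6.5 per the submitters' processing notes, are log2 signals of probe sets; background correction, normalization and summarization are part of RMA, its settings are not given in the sources used, and such values pull small differences of dim probe sets toward 0. They were used as deposited. Arrays have no depth; their number limits the precision. Of 25344 probe sets, the 2677 with no gene and the 1530 with several were left out. The other 21137 cover 19475 genes, of which 915 have several probe sets (lists take the one with the highest mean); 21053 matched RefSeq (GRCm38.p6).

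limma 3.58.1 in R 4.3.3 fitted 6 group means over 18 arrays (12 residual degrees of freedom, prior 3.12, prior SD 0.144), with Benjamini-Hochberg adjustment over all probe sets; the contrasts were KO minus HET at each time and its change from untreated or 2 h to 4 h. On simulated data with independent arrays, the fit recovered 41% of 4 h differences of 0.5 and 91% of those of 1, with 5 wrong calls. Same-numbered arrays deviated together in the real data, which this check does not cover. Named were Wbp7, Pigp and Cd14, the 15 highest and 15 lowest called probe sets whose arrays did not overlap, the 6 highest and 6 lowest called changes (or the 5 smallest p), and called and up to 3 other members of each list. The comparison, the 29 lists, the named-gene rule and the alternatives were chosen with earlier results of these data known. Replicate numbers paired arrays within a genotype (r over 0.1 in 18 of 18 pairs across times) but not across genotypes (2 of 9 pairs), a reading taken from the data, since the labels do not state it; the block by genotype and number is given beside the changes over time. Alternatives were centring, quantile normalization, leaving out probe sets below the 40th percentile, 1 probe set per gene, a trend with a robust prior, array weights, blocks, the 6 arrays alone, a 2-fold minimum, and leaving out arrays.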

Additional observations from a re-analysis of the deposited data

Results flagged for a closer look

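The KO minus HET difference changed from untreated cells to 4 h at 7 named genes, by the test of the change itself (limma, adjusted p over all probe sets). The changes were −2.08 for Gnb4, −1.51 for Cysltr2, −1.45 for Il23r, −1.34 for Dll1, −1.31 for Angpt1, −1.15 for Hap1 and 1.57 for Gnl3. From 2 h to 4 h it changed for Angpt1, by −1.45. Cysltr2, Il23r and Angpt1 were dim in both genotypes when untreated, and Angpt1 also at 2 h, so the sizes of their changes are uncertain. Each difference was in the same direction at 4 h as its change, with the 3 KO and 3 HET arrays not overlapping. The arrays without which calls were lost are named with the values above.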

How the results depend on the processing

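Of the 530 calls at 4 h, the number was 481 with centred arrays, 494 after quantile normalization, 593 with dim probe sets left out, 472 with 1 probe set per gene and 468 with the trend. It moved by over 1.5 times with array weights (1358), with replicate number as a block over all arrays (1412, which held all 530; those numbers did not pair the genotypes), with only its 6 arrays fitted (48, of which 47 were shared), with a 2-fold minimum (135) and without HET replicate 1 at all 3 times (951). With culture, the genotype and number, as a random block it was 597. Leaving out a 4 h array gave 114 to 711 (200 without HET replicate 1, 201 without KO replicate 3); leaving out an array of another time, an alternative added after the data were seen, gave 386 to 1173. The share of calls that were higher was 54.0%, or 52.4% centred and 48.6% after quantile normalization, which moved the median of all probe sets by 0.04. The 8 changes from untreated to 4 h became 5 with centred arrays, 1 with dim probe sets left out, 34 with array weights, 76 and 91 with the random and fixed culture block, 49 without HET replicate 1 at all 3 times and 0 to 10 with an array left out. The 1 change from 2 h to 4 h became 2 after quantile normalization, 0 with dim probe sets left out, 8 with array weights, 2 with the number block, 3 and 2 with the culture blocks and 0 to 2 with an array left out. No called named gene changed direction; of the 59 called named probe sets 54 kept the call with culture as a random block, 23 with the 6 arrays alone, 25 without KO replicate 2 and 34 without HET replicate 1 at 4 h. The causes of these moves were not tested. With 3 arrays a group and dim KO signal at 5 called named probe sets, small differences and the size of the largest are poorly fixed.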
